A study of Mus musculus with 8 samples.

Results

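Klf2, S1pr1 and Ccr7 were described as 3 genes of lymphocyte recirculation, chosen by symbol from the 52459 genes listed for Treg cells with and without STIM1 and STIM2. All 3 symbols were present, and each averaged above the minimum of 10 normalized counts that kept 15419 genes in the tests. RNA sequencing had been done on 8 libraries of C57BL/6 Treg cells, 2 for each combination of genotype and stimulation. The cells were sorted as CD4+CD25hi from pooled spleen and lymph nodes of several healthy female mice per sample, all heterozygous for Foxp3-YFPcre and carrying floxed Stim1 and Stim2 alleles. WT cells were YFPcre- and Stim1/2-deficient (DKO) cells were YFPcre+, so that both kinds came from mosaic animals, and expression of the Cre allele itself differed along with genotype. Cells were either unstimulated or kept for 16 h on plate-bound antibodies to CD3 and CD28 at 1 µg/ml. Unstimulated libraries were read on one sequencing lane and stimulated libraries on another, so that stimulation and lane cannot be told apart. The question was whether the 2 receptor transcripts follow Klf2 across the 4 groups.

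KLF2 is a zinc finger transcription factor of quiescent T cells that is needed for their circulation and switches on S1pr1. S1PR1 is a receptor for sphingosine 1-phosphate (S1P), which is abundant in blood and lymph, and lymphocytes leave lymphoid organs by sensing it. CCR7 is the receptor for the chemokines CCL19 and CCL21 and guides cells into lymph nodes and their T cell zone. Engagement of the T cell receptor lowers Klf2 transcription through PI3K, AKT and loss of the factor FOXO1 from the nucleus. STIM1 and STIM2 sense calcium in the endoplasmic reticulum and open the ORAI channels through which stimulated T cells take up calcium.

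Stimulation lowered Klf2 and S1pr1 in both genotypes, by 3.46-fold to 7.56-fold, and lowered Ccr7 in WT cells by 5.21-fold, and Ccr7 in DKO cells changed by -0.54 on the log2 scale, which did not pass the test. That value depended on which of the 2 unstimulated DKO libraries was kept. With all 8 libraries, limma did not find the stimulation effect of Ccr7 to differ between the genotypes after adjustment. The difference ran from 0.71 to 2.97 on the log2 scale with 1 library left out at a time. Both DKO libraries had more Klf2 than both WT libraries in each state. That position was shared by 26.5% of tested genes in unstimulated and 24.3% in stimulated cells. None of the 6 genotype differences passed the threshold after adjustment in limma over all 8 libraries, whereas DESeq2 called Klf2 and S1pr1 higher in stimulated DKO cells. Ccr7 in unstimulated DKO cells differed 4.80-fold between the 2 replicates.

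Depth was 11851853 to 16306540 reads on genes per library, and the least covered value among the 3 genes, Klf2 in a stimulated WT library, rested on 159 reads. The deposited values are reads divided by a size factor of the library and are called normalized counts here. Stim1, a targeted gene, stood at 1538 to 1868 normalized counts in the unstimulated libraries labelled DKO and at 1139 to 1377 in those labelled WT, a log2 difference of 0.44 opposite to a loss (limma adjusted p = 0.236, unadjusted p = 0.0542). Stim1 in stimulated cells and Stim2 in both states had log2 differences of -0.15 to -0.13 that were not called. Counts over whole genes do not show an excised exon, so within these counts the genotype rests on the labels. WT and DKO stand for libraries labelled so. The study reported that YFP+ Treg cells of such female mice lacked the calcium entry that follows emptying of the endoplasmic reticulum. It also reported loss of Stim1 and Stim2 by RT-PCR in Treg cells of male mice. Those measurements were not made on these libraries. The 9 Treg and T cell markers summed to 45051 to 52777 normalized counts in unstimulated DKO libraries against 92243 to 99112 in unstimulated WT libraries. Among them, Cd3e, Cd3g and Cd4 averaged 3099, 1928 and 8684 in unstimulated DKO against 3359, 2443 and 9839 in unstimulated WT libraries. Ctla4 and Ikzf2 averaged 11835 and 8815 against 36261 and 19330. All 9 had fitted values below 0, and Ctla4, Ikzf2 and Tnfrsf18 were called lower, beside 3.35% of tested genes. Foxp3, which defines Treg cells, was present in every library and stood at 4258 to 4947 normalized counts in unstimulated DKO against 8159 to 10001 in unstimulated WT libraries (limma adjusted p = 0.0591). Unstimulated DKO replicate 1 stood apart, with 11319 normalized counts over 12 macrophage and monocyte markers against 1816 in replicate 2 and 511 to 522 in WT, and with 15207 over 10 B cell markers against 4186 in replicate 2 and 5761 to 6710 in WT. Of 8 endothelial markers, whose cells also express Klf2 and S1pr1, Emcn was at 0 in every library, Cdh5 had at most 1.48 normalized counts and Sox18 at most 1.05, and Pecam1, which T cells also express, was the 1 marker above 21.4. The part of these other cells in the levels of Klf2, S1pr1 and Ccr7 was not tested, and their changes, ratios and likeness are also given without unstimulated DKO replicate 1 below. Fewer cells of a type and less RNA per cell cannot be told apart in such libraries.

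On GRCm38.p6 (RefSeq), Klf2 lies on chromosome 8 from 72319062 to 72321654, S1pr1 on chromosome 3 from 115710433 to 115715055 and Ccr7 on chromosome 11 from 99144199 to 99155077. No other gene of GENCODE vM1 overlapped any of the 3. A RefSeq promoter window was held for 1 of the 3, Klf2, and its 250 bases before the gene start (chr8:72318812-72319061, plus strand) are shown because Klf2 is the factor the receptors were compared with. Capitals mark matches to the MEF2 consensus, by which MEF2 factors downstream of ERK5 act on Klf2, to the KLF box CACCC (reverse complement GGGTG) and to the GC box GGGCGG.
Klf2 promoter: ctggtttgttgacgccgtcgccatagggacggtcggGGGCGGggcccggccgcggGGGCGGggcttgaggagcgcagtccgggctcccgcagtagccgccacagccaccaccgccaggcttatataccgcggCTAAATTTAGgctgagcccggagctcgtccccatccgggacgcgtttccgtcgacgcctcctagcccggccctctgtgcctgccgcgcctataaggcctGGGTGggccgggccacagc
The MEF2 match, CTAAATTTAG, reads alike on both strands and begins 118 bases before the gene start. A MEF2 match on either strand was held by 2.92% of 32851 promoter windows of the same length. CACCC had 1 match in the Klf2 window and was held by 52.0% of all windows. GGGCGG had 2 matches, where 32.7% of all windows held at least 1 and 16.7% held at least 2. The FOXO core GTAAACA had 0 matches in the Klf2 window and was held by 3.17% of windows, and the NFAT core GGAAA had 1 match and was held by 55.6%. Each motif was searched on both strands, and no matches overlapped in the Klf2 window. G and C made up 71.2% of the Klf2 window, above 92.2% of all windows. A match is a description of letters, and its use by any factor was not measured.

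In unstimulated cells, Klf2 stood at 745 and 599.7 normalized counts in WT and at 1114 and 1366 in DKO libraries. After stimulation, it had 124 and 185 in WT and 236 and 538 in DKO. In each state both DKO libraries lay above both WT libraries, as for 26.5% of tested genes in unstimulated and 24.3% in stimulated cells. Within each genotype both stimulated libraries lay below both unstimulated ones, as for 36% of tested genes in WT and 30.6% in DKO cells. The group means descended from unstimulated DKO (1240 ± 179, SD, n = 2) through unstimulated WT (672 ± 102) and stimulated DKO (387 ± 214) to stimulated WT (154 ± 42.8), with no overlap between neighbouring groups. The 2 stimulated DKO libraries differed 2.28-fold, the widest gap of Klf2 within a group.

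In unstimulated cells, S1pr1 stood at 6141 and 4991 normalized counts in WT and at 4988 and 11805 in DKO libraries. After stimulation, the counts were 645 and 829 in WT and 1274 and 3146 in DKO. The unstimulated genotypes overlapped, because DKO replicate 1 lay at the level of the lower WT library. Both stimulated DKO libraries lay above both stimulated WT libraries, as they did for 24.3% of tested genes. The order of the group means was that of Klf2, with 8397 ± 4820.2 in unstimulated DKO, 5566 ± 813 in unstimulated WT, 2210.1 ± 1323 in stimulated DKO and 737 ± 130 in stimulated WT (SD, n = 2). In stimulated DKO cells, replicate 2 exceeded replicate 1 by 2.47-fold, and it was also the replicate with more Klf2.

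In unstimulated cells, Ccr7 stood at 7052 and 5940 normalized counts in WT and at 1405 and 6749 in DKO libraries. After stimulation, it had 1365 and 1128 in WT and 2192 and 2036 in DKO. Unstimulated DKO replicate 2 lay between the WT libraries, and replicate 1, the library rich in macrophage and B cell markers, lay below both stimulated DKO libraries. The order of means differed from that of Klf2, with unstimulated WT highest at 6496 ± 787, then unstimulated DKO at 4077 ± 3778, stimulated DKO at 2114 ± 110.4 and stimulated WT at 1247 ± 168 (SD, n = 2). Unstimulated DKO overlapped both of its neighbours in this order, and the stimulated groups did not overlap. In stimulated cells, 24.3% of tested genes had both DKO libraries above both WT libraries.

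**Figure D1:**
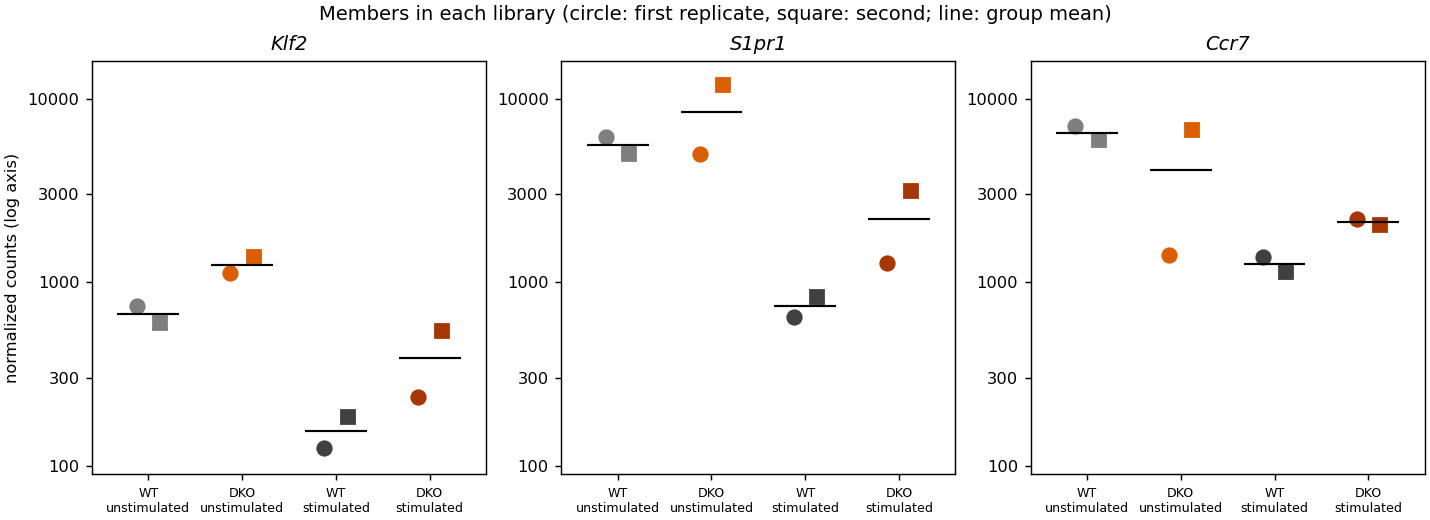
Normalized counts (log axis) of Klf2, S1pr1 and Ccr7 in each of the 8 libraries by group, with circles for the first and squares for the second replicate and lines at group means. Klf2 and S1pr1 are highest in unstimulated DKO and lowest in stimulated WT cells, whereas Ccr7 splits between 1405 and 6749 in unstimulated DKO cells.

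Levels of different genes were compared per kilobase of exon, using exon lengths of 1.85, 3.03 and 1.98 kb in GENCODE vM1 for Klf2, S1pr1 and Ccr7. In unstimulated WT cells, the level per kilobase was 364 ± 55.5 for Klf2, 1838 ± 268 for S1pr1 and 3284 ± 398 for Ccr7 (SD, n = 2), with no overlap. In stimulated WT cells, the levels per kilobase were 83.5 ± 23.2, 243 ± 42.9 and 630.2 ± 85.1. In unstimulated DKO cells, they were 671 ± 96.7 for Klf2, 2772 ± 1591 for S1pr1 and 2061 ± 1910.2 for Ccr7. In stimulated DKO cells, they were 209 ± 116, 730 ± 437 and 1069 ± 55.8. The transcript of the factor thus had the lowest mean of the 3 in each group, and the receptors exchanged order of the mean between WT and DKO unstimulated cells within a wide spread.

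Genotype was compared within each state by limma on log2(value + 1), with 2 libraries against 2 and 1 spread for all groups, and genes past both an adjusted p of 0.05 and a change of 1.5-fold are described as called. In unstimulated cells, Klf2 was 1.84-fold higher in DKO than in WT libraries (log2 fold change 0.88, standard error 0.37, limma adjusted p = 0.191), and the interval of the log2 change ran from 0.07 to 1.69 before adjustment. S1pr1 differed by 0.47 on the log2 scale (standard error 0.44, limma adjusted p = 0.577). Ccr7 differed by -1.07 (standard error 0.53, limma adjusted p = 0.271). None of the 3 was called, where 1.38% of tested genes were called higher and 3.35% lower, and the position of Klf2 in both DKO libraries above both WT libraries was shared by 26.5% of tested genes. Without DKO replicate 1, S1pr1 was higher by 1.09 and Ccr7 by 0.0603, neither of them called. Without DKO replicate 2, S1pr1 turned to -0.15 and Ccr7 reached -2.20 (limma adjusted p = 0.000682).

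In stimulated cells, the log2 fold change of Klf2 was 1.23 (standard error 0.37, limma adjusted p = 0.161), a 2.35-fold difference with an unadjusted p of 0.00694. That of S1pr1 was 1.45 (standard error 0.44, limma adjusted p = 0.168), a 2.74-fold difference. Ccr7 differed by 0.77 (standard error 0.53, limma adjusted p = 0.583). All 3 genes had both DKO libraries above both WT libraries, as had 24.3% of tested genes, and 0 of 3 were called, where 0.162% of tested genes were called higher and 0.11% lower. DESeq2 on the recovered reads, the tool the study named, called Klf2 at 1.33 (adjusted p = 0.0141) and S1pr1 at 1.58 (adjusted p = 0.00429) and did not call Ccr7. DKO replicate 2 carried much of both differences. Without it, Klf2 was at 0.64 and S1pr1 at 0.80, whereas without DKO replicate 1 they were at 1.82 and 2.10 and both were called (limma adjusted p = 0.0166 and 0.0275). CD8 T and NK cell markers summed to 1817 and 448 normalized counts in stimulated DKO replicates 1 and 2. In stimulated WT replicates 1 and 2, they summed to 1011 and 291. B cell markers summed to 5227 and 2529 in DKO and to 5303 and 4828 in WT. Ighm alone stood at 3596 and 2147 in DKO and at 4234 and 4636 in WT. Every other B cell marker was higher in replicate 1 than in replicate 2 of both genotypes. Among them, Ms4a1 had 312 and 61.6 in DKO and 263 and 19.0 in WT. The part of CD8 T, NK and B cells in the gap between the DKO replicates was not tested. Ccr7 at 0.77 was called without either unstimulated DKO replicate (limma adjusted p = 0.037 and 0.0407), where the spread shared by all groups no longer held that pair. The study names Klf2 from these libraries, so its direction here is not independent evidence.

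Stimulation lowered the 3 genes in WT cells. The log2 fold change was -2.14 for Klf2 (standard error 0.37, limma adjusted p = 0.0037), -2.92 for S1pr1 (standard error 0.44, limma adjusted p = 0.00237) and -2.38 for Ccr7 (standard error 0.53, limma adjusted p = 0.0116). These are falls of 4.40-fold, 7.56-fold and 5.21-fold. All 3 genes were called lower, where 13.1% of tested genes were called lower and 10.2% higher, and the stimulated libraries lay below the unstimulated ones for 36% of tested genes. Klf2 and S1pr1 were called with each library left out in turn, and Ccr7, which fell by 2.24 to 2.52, lost its call without any 1 of the 4 WT libraries (limma adjusted p = 0.0585 to 0.0843).

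In DKO cells, stimulation lowered Klf2 by 3.46-fold (log2 fold change -1.79, standard error 0.37, limma adjusted p = 0.00693) and S1pr1 by 3.83-fold (log2 fold change -1.94, standard error 0.44, limma adjusted p = 0.0112). Ccr7 changed by -0.54 (standard error 0.53, limma adjusted p = 0.479), with an interval from -1.73 to 0.64. Of the 3 genes 2 were called lower, against 12% of tested genes called lower and 13% higher, and 30.6% of tested genes had both stimulated libraries below both unstimulated ones. The value of Ccr7 depended on which unstimulated DKO library was kept. Without unstimulated DKO replicate 1, Ccr7 fell by 1.67 (limma adjusted p = 0.000383), and without replicate 2 it stood at 0.59. S1pr1 was not called without unstimulated DKO replicate 2, at -1.32, or without stimulated DKO replicate 1, at -1.29.

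The difference between the stimulation effects was tested by the interaction term. It was 0.35 for Klf2 (standard error 0.52, limma adjusted p = 0.879), 0.98 for S1pr1 (standard error 0.62, limma adjusted p = 0.687) and 1.84 for Ccr7 (standard error 0.75, limma adjusted p = 0.58). The unadjusted p of Ccr7 was 0.0344, and its interval ran from 0.16 to 3.51. Limma called 0 genes higher (0%) and 0 lower (0%) among all tested genes, with 1257 at an unadjusted p under 0.05, edgeR called 0 and DESeq2 called 50. The term was 0.71 for Ccr7 (limma adjusted p = 0.434), 0.36 for S1pr1 and 0.20 for Klf2 when unstimulated DKO replicate 1 was left out. Without unstimulated DKO replicate 2, the term for Ccr7 was 2.97 (limma adjusted p = 0.00441) and 196 genes were called.

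**Figure D2:**
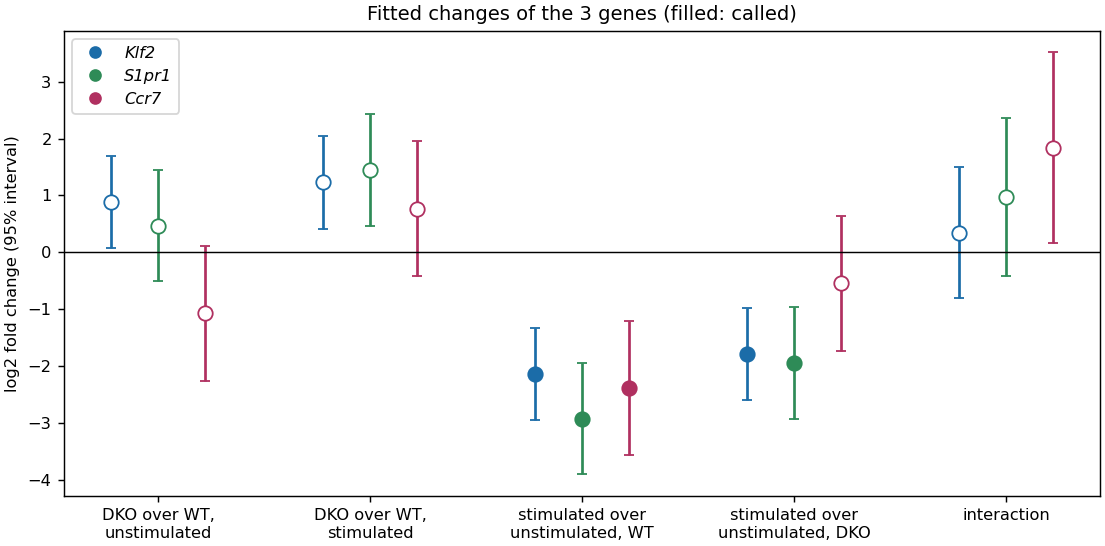
Log2 fold changes of the 3 genes in each comparison from limma, with 95% intervals before adjustment and filled symbols for called changes. The 5 called changes are falls on stimulation, at -2.14, -2.92 and -2.38 in WT and -1.79 and -1.94 in DKO cells.

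**Figure D3:**
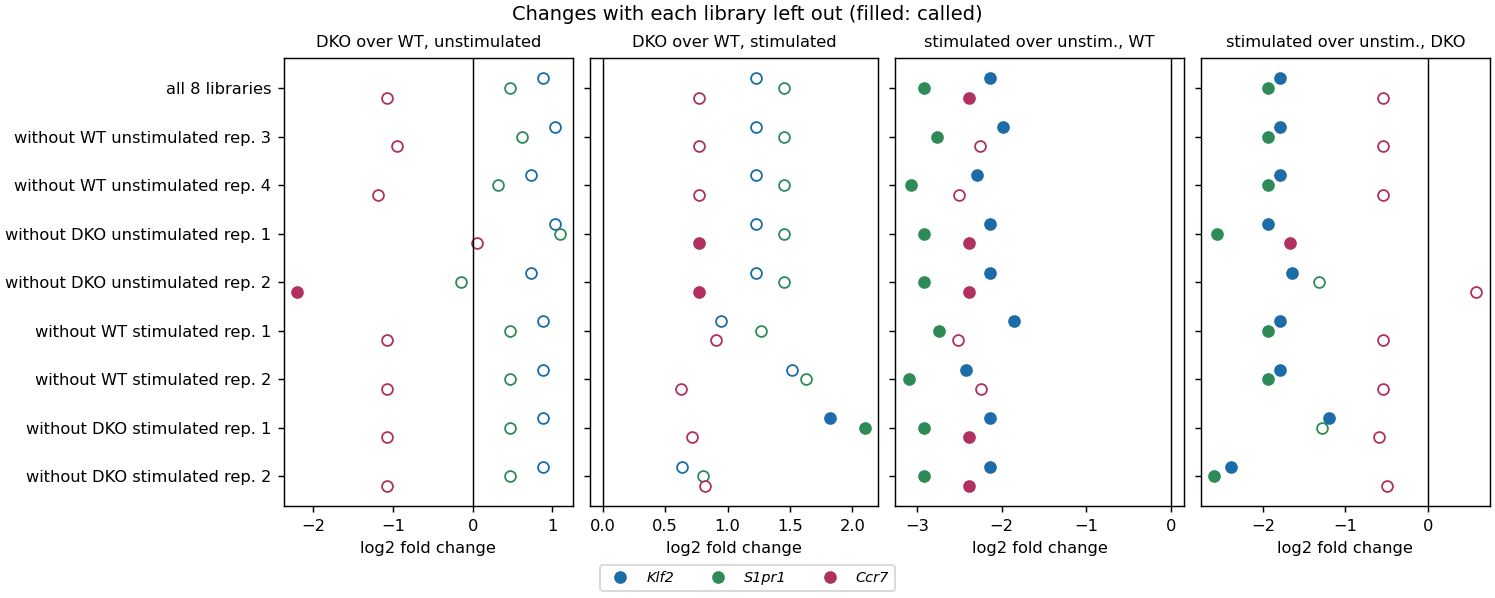
Log2 fold changes of the 3 genes with all 8 libraries and with each left out in turn, filled where called. Ccr7 moves between -2.20 and 0.0603 in unstimulated cells when either DKO library is omitted, whereas Klf2 stays between 0.73 and 1.04.

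Whether the receptors followed Klf2 was also examined as a ratio within each library, which does not depend on the scaling of libraries other than through the pseudocount of 1. S1pr1 stood at 8.24 and 8.31 times Klf2 in the unstimulated WT libraries and at 4.48 and 8.63 times in the unstimulated DKO libraries. In stimulated cells, S1pr1 was 5.17 and 4.47 times Klf2 in WT and 5.39 and 5.84 times in DKO. The ratio was alike in 3 of the 4 unstimulated libraries, and unstimulated DKO replicate 1 lay within the stimulated range. The mean genotype difference of the log2 ratio over both states was -0.10 (exact 2-sided permutation of genotype within state, p = 1, adjusted p = 1 over 3 ratios, n = 4 libraries per genotype). On stimulation, the log2 ratio changed by -0.78 in WT and by -0.15 in DKO cells. Without unstimulated DKO replicate 1, the mean genotype difference was 0.14 and the change on stimulation in DKO cells was -0.62.

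Ccr7 stood at 9.46 and 9.89 times Klf2 in unstimulated WT libraries and at 1.26 and 4.94 times in unstimulated DKO libraries. After stimulation, it was 10.9 and 6.08 times Klf2 in WT and 9.26 and 3.78 times in DKO. The unstimulated genotypes did not overlap in this ratio, and the stimulated ones did. The mean genotype difference of the log2 ratio was -1.21 (exact 2-sided permutation, p = 0.111, adjusted p = 0.167 over 3 ratios), at -1.95 in unstimulated and -0.46 in stimulated cells. The mean difference was -0.72 and the unstimulated one -0.97 when unstimulated DKO replicate 1 was left out, and over all single libraries left out the mean difference ran from -1.70 to -0.72. Against S1pr1, the log2 ratio of Ccr7 differed by a mean of -1.11 between DKO and WT libraries (exact 2-sided permutation, p = 0.111, adjusted p = 0.167), and by -0.86 without unstimulated DKO replicate 1. The smallest p that the 36 arrangements allow is 0.0556, so no ratio could pass 0.05.

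**Figure D4:**
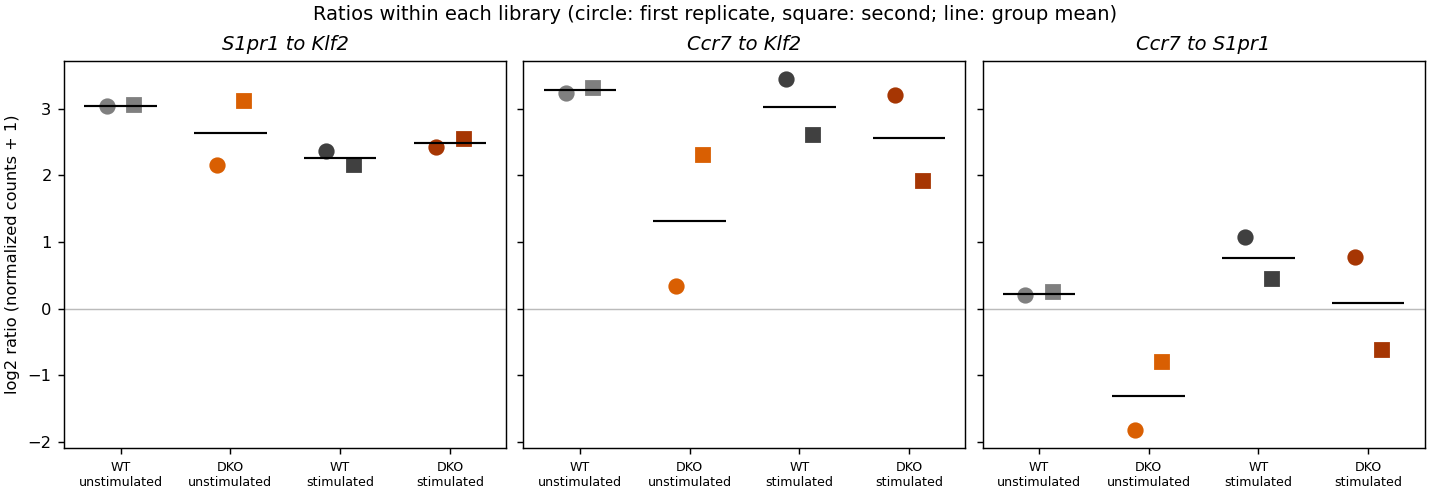
Log2 ratios of S1pr1 to Klf2, Ccr7 to Klf2 and Ccr7 to S1pr1 within each of the 8 libraries, with lines at group means. The ratio of S1pr1 to Klf2 lies between 2.16 and 3.11 in all libraries, whereas that of Ccr7 to Klf2 spans 0.34 to 3.45.

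Likeness over the 8 libraries was measured as the root mean square difference of log2 values centred on each gene's mean, against 9146 other genes that averaged 100 normalized counts or more. It is a description over 4 groups that differ mainly by stimulation. The 5 genes nearest to Klf2 were Esrp2 (0.22), Cmah (0.24), Pmel (0.26), Sytl2 (0.26) and Dgka (0.28), of which Dgka encodes a diacylglycerol kinase that restrains T cell receptor signals. S1pr1 ranked 26 among 9146 genes by nearness to Klf2, at 0.38, and Klf2 ranked 7 by nearness to S1pr1. The 5 genes nearest to S1pr1 were Klf7 (0.22), Pak1 (0.30), Sytl2 (0.31), Ctsl (0.34) and Esrp2 (0.34). Sytl2 and Esrp2 were in both sets. Ccr7 ranked 2151 by nearness to Klf2, at 0.98, and 643 by nearness to S1pr1, at 0.90. Over the 7 libraries without unstimulated DKO replicate 1, an alternative chosen after seeing the data, Ccr7 ranked 225 for Klf2, at 0.54, and 126 for S1pr1, at 0.64, whereas S1pr1 ranked 33 for Klf2, at 0.36.

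The 5 genes nearest to Ccr7 were Ubald2 (0.20), Jak2 (0.24), Ypel2 (0.29), Csrnp1 (0.30) and Acsl3 (0.31). Jak2, a kinase of cytokine receptors, had 4056 normalized counts in unstimulated DKO replicate 1 and 11778 to 14392 in the other unstimulated libraries. Ubald2 had 55.6 in that replicate and 318 to 437 in the other unstimulated libraries. These genes thus shared with Ccr7 its low value in that library. Cmah, near Klf2, encodes the enzyme that makes N-glycolylneuraminic acid and was called higher in unstimulated DKO cells (log2 fold change 1.24, limma adjusted p = 0.0291), with 4902 and 4342 normalized counts in DKO against 1958 and 1959 in WT libraries.

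Lists of genes related to the 3 were summarised by counts, and the fits were those over all tested genes. Among the receptors for S1P, S1pr1 to S1pr4 were tested and S1pr5 was not. S1pr4, another receptor of lymphocytes, stood in WT cells at 614 and 409 normalized counts before stimulation and at 205 and 216 after it, and it was called lower (log2 fold change -1.25, limma adjusted p = 0.00918). In DKO cells, it had 370.2 and 450.1 before and 292 and 360 after stimulation (log2 fold change -0.33, limma adjusted p = 0.379). With libraries rescaled to equal totals, S1pr4 was not called in WT cells and its value in DKO cells turned above 0. S1pr2, which restrains migration, stood at 130 and 137 normalized counts in unstimulated WT and 71.3 and 48.1 in unstimulated DKO libraries (log2 fold change -1.17, limma adjusted p = 0.109). S1pr3 had at most 59.2 in any library. Limma over all 8 libraries called none of the 4 in a genotype comparison, whereas DESeq2 called S1pr1 higher in stimulated DKO cells.

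Of 10 genes that make, export or break down S1P, 8 were tested, and none was called by genotype. Sgpl1, the S1P lyase, was called lower on stimulation in WT cells (log2 fold change -0.75, limma adjusted p = 0.0351), and Plpp3, a lipid phosphatase with 73.4 normalized counts in unstimulated DKO replicate 1 and at most 8.86 elsewhere, was called lower in DKO cells. The call of Sgpl1 was lost with libraries rescaled to equal totals. Leaving out unstimulated DKO replicate 1, Plpp3 was not called in DKO cells and Sgpl1 was called lower there. The ligands of CCR7, Ccl19, Ccl21a and Ccl21b, had 0 reads in all 8 libraries. Ackr4, which scavenges them, had 3.24 to 48.4 normalized counts and was not called in any comparison.

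Of the tested Krüppel-like factors, 8 of 12 were called lower after stimulation in each genotype. Of 17 genes 12 were tested, Klf2 among them, and in WT cells 11 had values below 0 and 8 were called lower, with a median of -1.64 against 0.01 over all tested genes, of which 13.1% were called lower. In DKO cells, 12 of 12 were below 0 and 8 were called lower, with a median of -1.47 against -0.03 and 12% of all tested genes called lower. Klf16 turned to a value above 0 in both genotypes with libraries rescaled to equal totals, when 8 and 7 were called lower. In WT cells, Klf4, a factor of quiescence, stood at 1883 and 1501 normalized counts before and at 39.8 and 22.02 after stimulation (log2 fold change -5.78, limma adjusted p = 7.61e-05). Klf6 fell by 2.46 and Klf7 by 2.58 in WT cells. Without unstimulated DKO replicate 1, 9 of 12 were called lower in DKO cells.

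By genotype, limma over all 8 libraries called 1 of the 12 in unstimulated cells and 0 in stimulated cells. DESeq2 called Klf3 alone in unstimulated cells, and Klf2, Klf3 and Klf7 higher in stimulated DKO cells. Of the 12, Klf2 among them, 4 had values above 0 and 8 below 0 in unstimulated cells, with a median of -0.13 against -0.01 over all tested genes. The split was 6 and 6 with libraries rescaled to equal totals and 8 and 4 without DKO replicate 1. Klf3, a repressor of the same family, was called higher, as were 1.38% of tested genes, with 2879 and 3177 normalized counts in DKO against 1555 and 1594 in WT libraries (log2 fold change 0.94, limma adjusted p = 0.0201), and its call was lost without any 1 of the 4 WT libraries. In stimulated cells, it was 0.75 (limma adjusted p = 0.0961), and Klf7 was 1.29 (limma adjusted p = 0.18).

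Among 11 genes of lymph node entry and recirculation, Klf2 itself not included, 6 were called lower on stimulation in WT cells, S1pr1 and Ccr7 among them, where 13.1% of all tested genes were called lower. In DKO cells, 4 were called lower, S1pr1 among them, where 12% of all tested genes were, and 0 were called higher in either genotype. With libraries rescaled to equal totals, these counts were 4 and 3, Selplg was called higher in each genotype, and Itgb2 in both genotypes, Gpr183 in WT and Icam2 and Itgal in DKO cells turned to values above 0. Cxcr4, the receptor for CXCL12, fell by 3.37 in WT and 2.02 in DKO cells. Limma over all 8 libraries called none of the 11 genes by genotype in either state. DESeq2 called Itga4 higher and Cxcr4 lower in unstimulated DKO cells. In stimulated DKO cells it made calls higher, S1pr1 among them. With equal upper quartiles, limma called Itga4 higher in unstimulated DKO cells. Without unstimulated DKO replicate 1, calls were made in both states. Ccr7 was among them as higher in stimulated and Itgal as lower in unstimulated DKO cells. The medians of the 11 genes, 0.05 and 0.01, stood beside -0.01 and 0.02 over all tested genes.

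**Figure D5:**
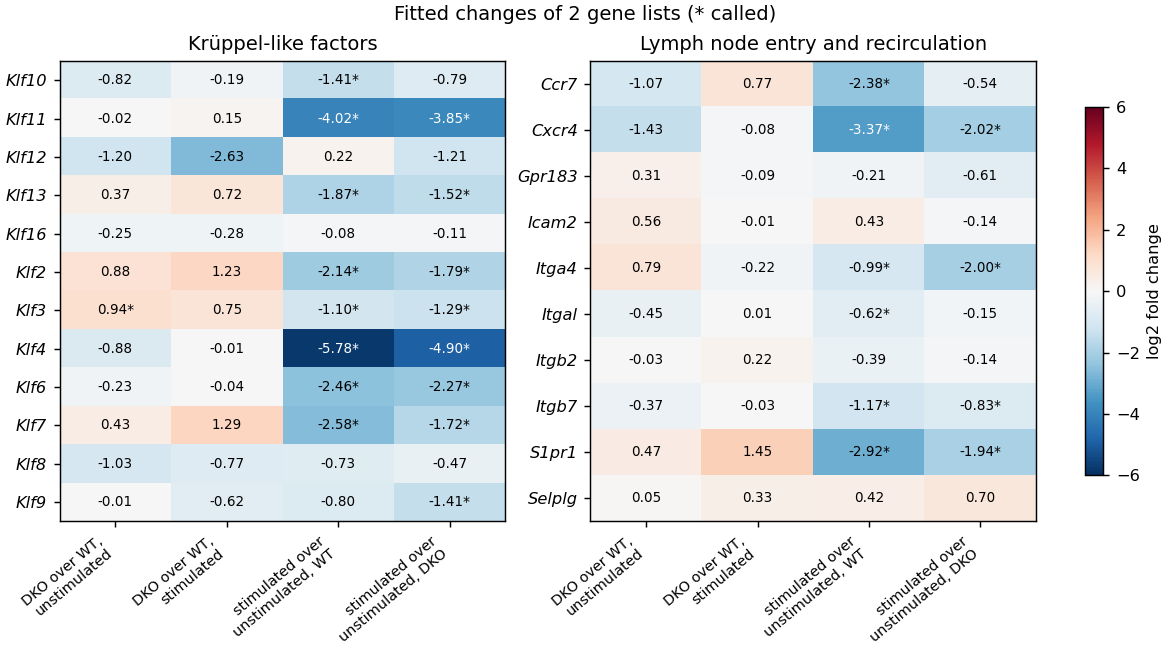
Log2 fold changes of the tested Krüppel-like factors and of genes of lymph node entry and recirculation in 4 comparisons, with called changes starred. The stimulation columns hold 8 and 8 called falls among the Krüppel-like factors and 6 and 4 among the recirculation genes, and the genotype columns hold 1 called gene, Klf3 at 0.94.

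Genes that act on Klf2 were tested in full, 17 of 17. Limma over all 8 libraries called none by genotype in either state, with medians of 0.23 in unstimulated and 0.19 in stimulated cells. DESeq2 called Akt1 lower in unstimulated and Map3k3 higher in stimulated DKO cells. Foxo1, which activates Klf2, stood in unstimulated cells at 10902 and 11083 normalized counts in WT and at 7147 and 15068 in DKO libraries. After stimulation, it stood at 3398 and 3493 in WT and at 3977 and 4303 in DKO libraries. It fell on stimulation by 1.67 in WT (limma adjusted p = 0.00364) and by 1.33 in DKO cells (limma adjusted p = 0.00875). In WT cells, 6 were called lower, among them Foxo3, Map3k2, Mef2d and Tsc1, and 0 were called higher, beside 13.1% and 10.2% of all tested genes. In DKO cells, Foxo1, Map3k2, Tsc1 and Wwp1 were called lower and Akt1 and Hdac7 higher, beside 12% and 13% of all tested genes, and 8 were called lower without unstimulated DKO replicate 1. With libraries rescaled to equal totals, 3 were called lower and 3 higher in WT cells and 1 lower and 2 higher in DKO cells, and Foxo1 was called lower in both. Mef2d, a factor of the MEF2 family whose consensus lies in the Klf2 promoter, fell by 1.89 in WT cells (limma adjusted p = 0.0162) and stood at -1.17 in DKO cells (limma adjusted p = 0.0887).

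Of 15 genes that couple or desensitise such receptors, 6 were called lower on stimulation in WT cells and 4 in DKO cells, beside 13.1% and 12% of all tested genes. With libraries rescaled to equal totals, 1 was called lower in WT cells, and 2 were called lower and 2 higher, Cd69 and Rgs1, in DKO cells. By genotype, Rgs2, which shortens G protein signals, was called lower in unstimulated DKO cells (log2 fold change -1.45, limma adjusted p = 0.0449), with 3791 and 9114 normalized counts against 18397 and 13945, and it was no longer called without DKO replicate 1 or any 1 of the 4 WT libraries, under either rescaling of the libraries or by edgeR (adjusted p = 0.0629). Cd69, whose product binds S1PR1 and removes it from the cell surface, was called higher in stimulated DKO cells, with 4521 and 6289 normalized counts against 2161 and 2165 in WT libraries (log2 fold change 1.30, limma adjusted p = 0.0481). S1pr1 and Cd69 transcripts were therefore both above WT in both stimulated DKO libraries, a position held singly by 24.3% of tested genes. The call of Cd69 was lost under both rescalings of the libraries, by edgeR (adjusted p = 0.0673), and without any 1 of the 4 WT libraries or stimulated DKO replicate 2 (limma adjusted p = 0.149 to 0.38).

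Of 10 genes linked to tissue residency or acting against egress, 9 were tested. In unstimulated DKO cells, 3 were called lower and 0 higher, beside 3.35% and 1.38% of all tested genes. Itgae, which encodes the integrin CD103, had 650.1 and 310 normalized counts against 3859 and 3408 in WT libraries (log2 fold change -3.01, limma adjusted p = 0.00803). Prdm1, which encodes BLIMP1, had 382 and 196 against 2050.4 and 1637 (log2 fold change -2.74, limma adjusted p = 0.00538). Bhlhe40 differed by -2.28 (limma adjusted p = 0.0201). In stimulated cells, Itgae was again called lower, at -2.74 (limma adjusted p = 0.0392), and Cd69, also on this list, was higher. Without DKO replicate 1, Itgae, Prdm1 and Tbx21 were called lower in unstimulated cells and Bhlhe40 was not. All 3 calls in unstimulated cells were lost without either unstimulated WT replicate, and the call of Itgae in stimulated cells was lost by edgeR (adjusted p = 0.0655) and without any 1 of the 4 WT libraries or stimulated DKO replicate 2.

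Among 15 genes of naive and central T cells, 13 had values above 0 by genotype in each state. In unstimulated cells, 5 were called higher and 0 lower, beside 1.38% and 3.35% of all tested genes, with a median of 0.88 against -0.01. They were Klf3, the apoptosis inhibitor Bcl2 at 1.09 (limma adjusted p = 0.0142), the repressor Bach2 at 0.83 (limma adjusted p = 0.0454), Ly6c1 at 1.83 and Actn1 at 1.32. In stimulated cells, Bcl2 at 1.11, Igfbp4 at 2.80 and Ly6c1 at 3.43 (limma adjusted p = 0.00304) were called higher, where 0.162% of all tested genes were, with a median of 0.90 against 0.02. The 3 calls in stimulated cells became 1 by edgeR, 2 with libraries rescaled to equal totals and 9 by DESeq2. Without unstimulated DKO replicate 1, 10 were called higher in unstimulated and 9 in stimulated cells. Without either unstimulated WT replicate, 0 were called in unstimulated cells, and without stimulated WT replicate 1 or stimulated DKO replicate 2, 0 were called in stimulated cells. On stimulation, 9 of the 15 were called lower in each genotype, where 13.1% of all tested genes were in WT and 12% in DKO cells. Ly6c1 was called higher in DKO cells. With libraries rescaled to equal totals, 7 were called lower in each genotype. Bach2 and Ly6c1 were then called higher in WT cells and Ly6c1 in DKO cells.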

How the data were processed

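A table of 52459 gene symbols by 8 Treg libraries, 2 in each of 4 groups, was analysed. The sources differ on its making. Per the labels, reads were aligned with STAR 2.7 to mm10 from stranded libraries, whereas the methods name Bowtie, NCBIM37 and HTSeq, with an unstranded kit. The deposited signal values are gene reads scaled by the authors with DESeq2 size factors. All values (100%) were whole multiples of 1 read within 0.01 normalized counts, and reads were recovered. Of the tested symbols, 13030 matched RefSeq GRCm38 and 11983 GENCODE vM1.

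In R 4.3.3, limma 3.58.1 (lmFit and trended eBayes) modelled log2(value + 1) over the 4 groups, with genes averaging under 10 left out. Tests were 2-sided and adjusted by Benjamini and Hochberg over 15419 genes. Ratios were tested by exact permutation. Fold changes understate those of low genes. The labels do not say how the pools of replicates were separated, so SDs and p-values measure only the spread between these libraries. Alternatives were a pseudocount of 0.1, no filter, equal totals or upper quartiles, the recovered reads in edgeR 4.0.16 and DESeq2 1.42.0, fits to 4 libraries, a replicate term and each library left out. The fits were tested on simulated data. Named genes were the 3 members, called or listed genes of the fixed lists and the 5 nearest patterns of each member. Sgpl1, Plpp3 and Tbx21 were named after their values were seen, and examples among the others were picked likewise. Some listed genes entered the counts but are not reported by name here. The members and lists were chosen with earlier results of these data known.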

Additional observations from a re-analysis of the deposited data

Results flagged for a closer look

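Itga4, the alpha 4 integrin chain, was set apart because both DKO libraries lay above both WT libraries in unstimulated cells (11389 and 7830 against 4986 and 5966 normalized counts) and below them in stimulated cells (2350 and 2356 against 3036 and 2480). The interaction was -1.01 on the log2 scale (limma adjusted p = 0.556). Rac2, a GTPase of chemokine receptor signalling, moved the other way, with an interaction of 0.49 (limma adjusted p = 0.648). Neither difference passed the test.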

How the results depend on the processing

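Of 261 repeats of the 15 changes and 3 ratios of Klf2, S1pr1 and Ccr7 under the alternatives, 241 kept direction and side of the threshold. The ratios could not pass the threshold in any setting, and with 1 library left out only their direction was compared. DESeq2 on recovered reads added calls of Klf2 at 1.33 and S1pr1 at 1.58 in stimulated cells, and edgeR added none.

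Omitting 1 library at a time, the genotype effect in unstimulated cells ranged from 0.73 to 1.04 for Klf2, from -0.15 to 1.09 for S1pr1 and from -2.20 to 0.0603 for Ccr7, with both ends for S1pr1 and Ccr7 set by the DKO replicates. In stimulated cells the ranges were 0.64 to 1.82, 0.80 to 2.10 and 0.63 to 0.91, and Ccr7 at 0.77 was called without either unstimulated DKO replicate. The stimulation effect ranged in WT cells from -2.42 to -1.85, from -3.10 to -2.74 and from -2.52 to -2.24, and in DKO cells from -2.38 to -1.20, from -2.59 to -1.29 and from -1.67 to 0.59. The interaction ranged from -0.25 to 0.94 for Klf2, from 0.33 to 1.63 for S1pr1 and from 0.71 to 2.97 for Ccr7. The mean genotype difference of the log2 ratio of S1pr1 to Klf2 ranged from -0.33 to 0.14.

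The replicate block in stimulated cells left Klf2 at 1.23 (limma adjusted p = 0.0732), S1pr1 at 1.45 and Ccr7 at 0.77 and raised the called genes from 42 to 88. Over DKO cells it left -1.79, -1.94 and -0.54. Same-numbered libraries deviated together (r = 0.17 between WT and DKO stimulated, 0.26 between DKO unstimulated and stimulated and 0.11 between WT stimulated and DKO unstimulated libraries, across genes), but the labels do not say that a number marks a shared batch, and each group has 2 numbers.

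Equal totals moved the median stimulation effect of all genes by 0.51 in WT and 0.38 in DKO cells and the share of called genes that were lower from 56.0% to 18.6% and from 48.2% to 22.1%. The stimulation effects with equal totals, in WT and DKO cells, were -1.62 and -1.40 for Klf2, -2.40 and -1.55 for S1pr1 and -1.86 and -0.15 for Ccr7, with the same calls. In unstimulated cells, the share of genotype calls that were lower went from 70.8% to 59.4% with equal totals and 53.7% with equal upper quartiles. Called genes in stimulated cells (42) came to 8 with a pseudocount of 0.1, 1 without a filter, 1 from the 4 libraries alone, 1 by edgeR and 550 by DESeq2. In unstimulated cells (730) they came to 362 without a filter, 338 from the 4 libraries, 484 by edgeR and 1338 by DESeq2, and those of stimulation in DKO cells (3852) to 1752 from the 4 libraries. With 1 library left out, called genes ranged from 8 to 1298 in unstimulated and from 0 to 762 in stimulated cells, and those of stimulation in WT cells from 971 to 4276. The causes were not tested. The lowest of the 24 values of the 3 genes rested on 159 reads, and precision was limited by 2 libraries per group.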
